A study of Mus musculus with 14 samples.

Results

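Cxcl12, Lepr, Vcam1, Il7 and Grem1 are 5 genes by which stromal cells of bone and marrow are known to support or regulate blood formation, or to be recognised as doing so. They were taken by symbol from a table of 9558 gene rows, and each of the 5 had 1 row. Their levels are given here in 14 single cells of mouse bone, which carry their label numbers 1 to 14, with RNA sequencing as the assay. The cells came from adult C57BL/6 mice of the genotype Prrx1-CreERT;Tomato. The Prrx1 promoter drives a tamoxifen-dependent Cre recombinase in these mice, and recombination switches on the red reporter Tomato, so a red cell used that promoter when tamoxifen was given or descends from a cell that did. All 14 cells shared this genotype and the same treatment, tamoxifen at 2 mg per 30 g of body weight daily for 3 days, and cells without it or from other genotypes were not analysed here. Marrow had been flushed from the tibiae, radii and ulnae before the bones were digested with collagenase, and red cells were then sorted and picked singly. The labels give 1 group and name no animal, so the cells count as 1 sample and no test between samples was possible. Every SD and range below describes the spread over these cells only.

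In adult marrow, reticular stromal cells that lie around the sinusoids hold blood stem cells and early lymphoid cells in place and supply them with growth factors. The chemokine encoded by Cxcl12 retains cells that carry the receptor CXCR4, the adhesion molecule encoded by Vcam1 binds integrins on those cells, and the cytokine encoded by Il7 sustains B cell precursors. Lepr encodes the leptin receptor, which is widely used to mark this stroma, and Grem1 encodes a secreted antagonist of bone morphogenetic proteins that has been used to mark skeletal progenitors.

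In GENCODE M21 (GRCm38), Cxcl12 (ENSMUSG00000061353) lies on the plus strand of chromosome 6 from 117168535 to 117181367 and Lepr (ENSMUSG00000057722) on the plus strand of chromosome 4 from 101717404 to 101815352. On the minus strand lie Vcam1 (ENSMUSG00000027962), on chromosome 3 from 116109949 to 116129688, Il7 (ENSMUSG00000040329), on chromosome 3 from 7569994 to 7613760, and Grem1 (ENSMUSG00000074934), on chromosome 2 from 113746164 to 113758646. All 5 are protein-coding. An antisense gene overlaps Vcam1 and another overlaps Il7, and the sources used here do not state whether strand was used in counting, so reads from these partners cannot be told apart. No other gene overlaps Cxcl12, Lepr or Grem1.

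The RefSeq promoter windows of Cxcl12, Lepr and Grem1 are shown, since 3 of the 5 genes had a window in the table used, and they let the starts of a widely detected gene, Cxcl12, be read beside those of genes that peaked in other cells. Each runs from 250 bases before a transcription start through the first 50 transcribed bases, 5′ to 3′ on the gene's strand, at chr6:117168285-117168584 (plus strand), chr4:101717157-101717456 (plus strand) and chr2:113758599-113758898 (minus strand) of GRCm38.p6. For Lepr, 1 of 2 windows in RefSeq is shown, the one farther upstream. Capitals mark matches to any of 10 motifs searched on both strands.
Cxcl12: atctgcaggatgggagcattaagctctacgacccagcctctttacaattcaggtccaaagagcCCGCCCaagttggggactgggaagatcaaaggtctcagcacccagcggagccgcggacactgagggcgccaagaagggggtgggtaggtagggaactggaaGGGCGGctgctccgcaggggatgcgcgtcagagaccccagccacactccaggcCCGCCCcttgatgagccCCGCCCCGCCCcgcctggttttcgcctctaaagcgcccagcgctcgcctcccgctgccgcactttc
Lepr: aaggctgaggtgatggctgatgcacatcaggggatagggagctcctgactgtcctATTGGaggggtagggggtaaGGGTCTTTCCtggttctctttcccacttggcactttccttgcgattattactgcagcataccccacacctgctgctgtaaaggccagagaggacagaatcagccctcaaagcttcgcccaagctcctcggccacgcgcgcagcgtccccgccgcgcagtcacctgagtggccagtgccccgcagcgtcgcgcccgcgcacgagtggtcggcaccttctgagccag
Grem1: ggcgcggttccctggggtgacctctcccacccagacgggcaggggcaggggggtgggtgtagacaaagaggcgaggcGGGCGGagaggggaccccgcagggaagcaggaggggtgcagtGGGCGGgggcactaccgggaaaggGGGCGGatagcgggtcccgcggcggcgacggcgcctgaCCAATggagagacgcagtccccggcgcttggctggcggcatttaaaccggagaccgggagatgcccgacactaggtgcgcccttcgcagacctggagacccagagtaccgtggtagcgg
The motifs were TATAAA (the TATA box), TAATTA (a homeobox core), the palindromic EBF motif, the NF-kappaB motif, TTNNGCAA (C/EBP), TGTTTAC (FOX), TGTGGT (RUNX), TTCNNNGAA (STAT), GGGCGG (the GC box) and CCAAT (the CCAAT box). In the Cxcl12 window the matches were 5 GC boxes, of which the last pair share 1 base. The Grem1 window held 3 GC boxes and 1 CCAAT box. The Lepr window shown held no GC box and had 1 CCAAT box and 1 NF-kappaB match. The other Lepr window, at chr4:101717656-101717955, held 1 GC box and 1 C/EBP match, so the presence of a GC box depended on the window. Of all 32851 windows, 35.7% held a GC box, 37.4% a CCAAT box and 1.63% the NF-kappaB motif, and a match is a description of the letters, not a binding site. The share of all windows with the other motifs was 13.6% for the TATA box, 5.29% for the homeobox core, 0.904% for EBF, 10.8% for C/EBP, 3.65% for FOX, 16.8% for RUNX and 8.30% for STAT. G and C made up 64.7% of the Cxcl12 window, 61.3% of the Lepr window and 70.7% of the Grem1 window, against a median of 52.7% over all windows.

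Levels are log2(FPKM + 1) after quantile normalization, where FPKM is fragments per kilobase of transcript, scaled to the size of the library, so a value mainly ranks a gene within its own cell. A gene was called detected from a level of 1 upward, which is where the normalized FPKM reaches 1. FPKM values and linear shares below are normalized levels turned back to the linear scale. They follow the rank of a gene within its cell and are not measured abundances. Between 7304 and 8027 rows were above 0 per cell, and the normalization set the number of detected rows to 5066 in every cell. The values carry no read counts, and the depth behind them is unknown. Shares of cells carry exact Clopper-Pearson 95% intervals, which cover counting error only. Dcn, a matrix gene of fibroblasts, was between 7.04 and 14.58 in the 14 cells, and Prrx1 was detected in 11 of them, with 0.61, 0.52 and 0.59 in cells 2, 12 and 14. Neutrophil transcripts were present in every library, with the granule gene Camp between 6.44 and 12.96. Neutrophil genes were most abundant in cells 6, 8, 11 and 14. The mean level of the 9 measured neutrophil genes was 9.41, 7.21, 8.60 and 9.09 there, against 2.52 to 5.58 in the other 10 cells. Over 8 leukocyte genes, cell 7 had the same mean as cell 6, 5.30, with 7 detected in each and summed FPKM of 1364 and 5126.

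**Figure D1:**
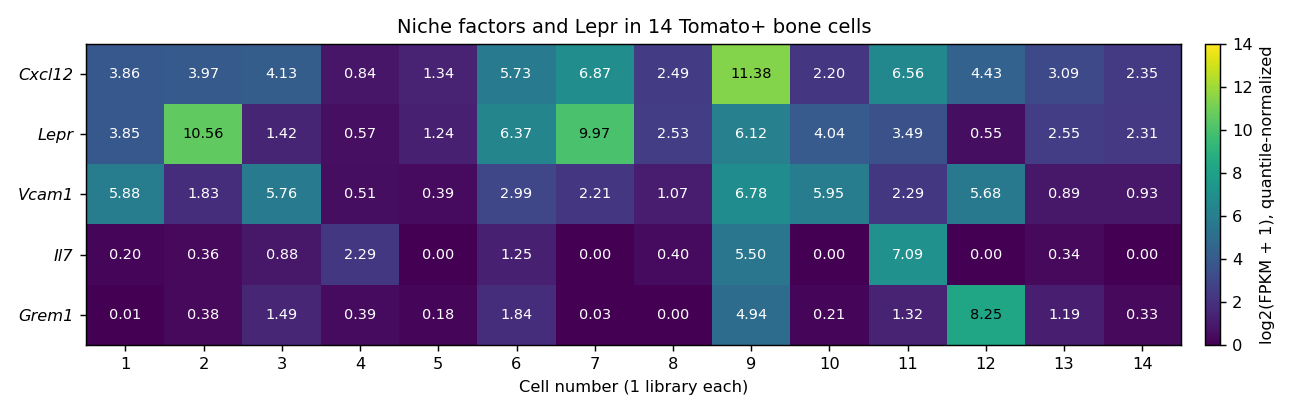
Level of each of the 5 genes (rows) in each of the 14 cells (columns), as log2(FPKM + 1) after quantile normalization, with the value printed in each field. Cell 9 holds levels between 4.94 and 11.38 for all 5 genes, while cells 4, 5, 8, 13 and 14 have no level of 5 or more.

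Cxcl12 was the most widely detected of the 5 genes, and its level in cell 9 stood far above the rest. It was detected in 13 of 14 cells (92.9%, interval 66.1% to 99.8%), with the lowest level of 0.84 in cell 4, a median of 3.92 and an SD of 2.74. The highest level was 11.38, in cell 9, and cells 7, 11 and 6 came next with 6.87, 6.56 and 5.73. The other 10 cells lay between 0.84 and 4.43, so the 4 highest cells were separated from them by a gap of more than 1 log2 unit. On the linear scale cell 9 had a normalized FPKM of 2670 and cell 7 of 116, and cell 9 alone held 88.4% of the sum over the 14 cells. Within cell 9 the gene stood at the 99.7th percentile of all rows, and its median percentile over the cells was 74.6.

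Lepr was detected in almost as many cells, and a pair of cells held most of it. It was detected in 12 of 14 cells (85.7%, interval 57.2% to 98.2%), from 0.55 in cell 12 and 0.57 in cell 4 to 10.56 in cell 2 and 9.97 in cell 7. The median was 3.02 and the SD 3.21, the largest of the 5 genes. Cells 6 and 9 formed an intermediate level at 6.37 and 6.12, and the remaining 10 cells lay at 4.04 or below. Cells 2 and 7 together held 92.4% of the summed linear level, with normalized FPKM values of 1508 and 1004. In these cells the gene stood at the 99.2nd and 98.7th percentile of all rows. Cell 2 had Prrx1 at 0.61, below detection, whereas cell 7 had it at 4.26.

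Vcam1 had a different shape, with a group of cells at a similar high level. It was detected in 10 of 14 cells (71.4%, interval 41.9% to 91.6%), with a median of 2.25 and an SD of 2.39. The lowest level was 0.39 in cell 5. Cell 9 was highest at 6.78, and cells 10, 1, 3 and 12 followed at 5.95, 5.88, 5.76 and 5.68. No cell lay between 2.99, the level in cell 6, and 5.68. Cell 9 held 31.0% of the summed linear level, the smallest top share of the 5 genes. Vcam1 is also made by activated endothelium and by some macrophages, so their markers were read in the same cells. The mean of the 4 measured endothelial genes was 1.24, 0.82, 1.22, 2.60 and 1.76 in cells 9, 10, 1, 3 and 12, within the range of 0.56 to 2.97 over all cells, and their summed FPKM in these 5 cells was 4.69 to 30.8, against 3.28 to 140 in the other 9. Cell 3 had 3 of the 4 endothelial genes detected, with the highest Emcn of the 14 cells, 3.29, and Vwf at 3.29. Cells 9, 10, 1 and 12 had 2, 2, 1 and 3 of the 4 detected. Emcn was listed at 0 in cell 9, Emcn and Tek in cell 10, and Tek in cells 3 and 12, and the part of endothelial RNA in the Vcam1 level of cell 3 was not tested. Pecam1, 1 of the 4 endothelial genes, was at 3.04 in cell 9 and was highest in cell 6, at 7.07, where Vcam1 was at 2.99. In cell 6 Emcn, Tek and Vwf were at 1.87, 0.84 and 2.11, and the neutrophil mean was 9.41. The source of the Pecam1 level in cell 6 was not tested. The 5 measured macrophage genes had their highest mean, 9.43, in cell 14, where Vcam1 was at 0.93. The summed FPKM of the macrophage genes was 37.9 to 284 in the 5 cells with high Vcam1, against 8.89 to 16091 in the other 9.

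Il7 was detected in the fewest cells of the 5 genes. It was detected in 4 of 14 cells (28.6%, interval 8.39% to 58.1%), with 7.09, 5.50, 2.29 and 1.25 in cells 11, 9, 4 and 6. It was listed at 0 in cells 5, 7, 10, 12 and 14 and lay between 0.20 and 0.88 in the other 5. The median was 0.35 and the SD 2.23. Cell 11 held 72.5% of the summed linear level, and cells 11 and 9 together held 96.2%. Cell 11 was also rich in leukocyte transcripts, with Ptprc, the gene of the leukocyte antigen CD45, at 8.31 and a mean of 9.25 over 8 leukocyte genes, all 8 of them detected. Cell 9 had Ptprc at 0.05 and a leukocyte mean of 2.98, with 5 of the 8 detected. The summed FPKM of the leukocyte list was 12398 in cell 11, against 189 in cell 9, and the part of blood cell RNA in the Il7 level of cell 11 was not tested. In cell 14, which had a leukocyte mean of 9.61 and Ptprc at 6.51, Il7 was listed at 0. The blood cell genes of cells 11 and 14 differed. The mean of the 5 measured B cell genes, Ebf1 among them, was 3.30 in cell 11, 0.34 in cell 14 and 1.30 in cell 9. Ebf1, which is also a gene of stroma, was at 7.60 in cell 11. In cell 9 it was the only 1 of the 5 detected, at 5.93. Cell 7 came next after cell 11, with a mean of 2.57. The macrophage mean was 4.27 in cell 11 and 9.43 in cell 14.

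Grem1 was high in 1 cell. It was detected in 6 of 14 cells (42.9%, interval 17.7% to 71.1%), and the highest level was 8.25 in cell 12, followed by 4.94 in cell 9. Cells 6, 3, 11 and 13 lay between 1.84 and 1.19, and the other 8 cells at 0.39 or below, with cell 8 listed at 0. The median was 0.38 and the SD 2.34. Cell 12 held 88.9% of the summed linear level, and cells 12 and 9 together held 97.5%. In cell 12 the gene stood at the 95.7th percentile of all rows, Lepr was at 0.55 and Il7 was listed at 0, so the cell highest in Grem1 was the lowest of the 14 in Lepr.

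**Figure D2:**
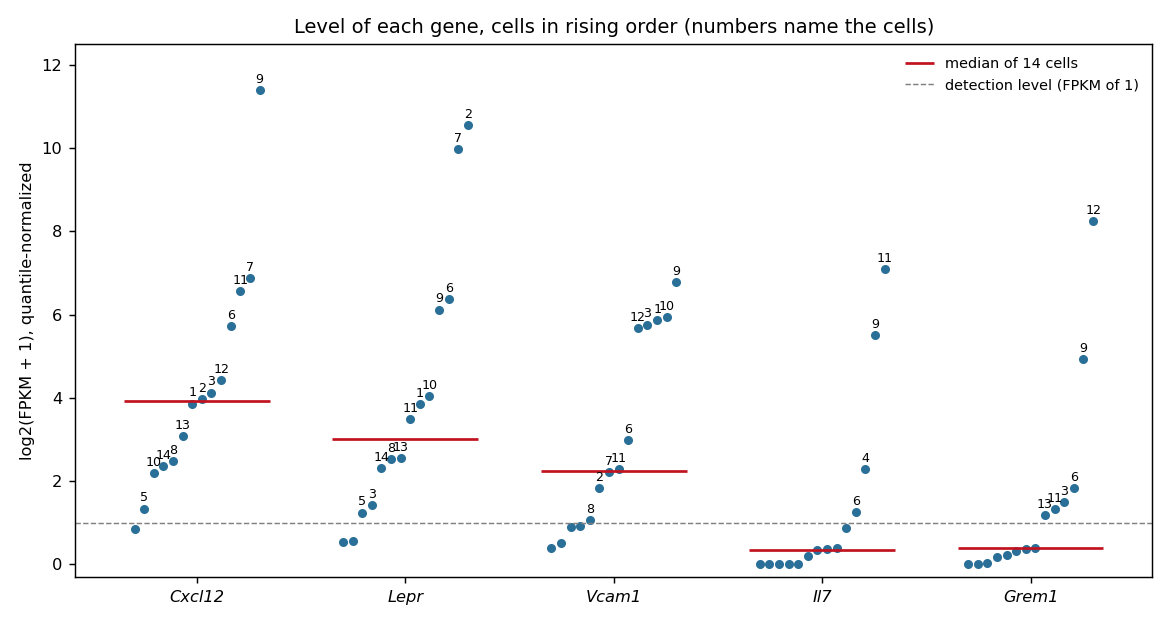
Levels of the 5 genes, with the cells of each gene in rising order from left to right, numbered where the gene was detected. The red line is the median of the 14 cells and the dashed line the detection level of 1. The highest cells are 9 for Cxcl12 and Vcam1, 2 for Lepr, 11 for Il7 and 12 for Grem1.

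Ordered by median level per transcript length, the genes ran Cxcl12 at 3.92, Lepr at 3.02, Vcam1 at 2.25, Grem1 at 0.38 and Il7 at 0.35, against 0.96 for the median row of the table. Each neighbouring pair in this order differed by less than the SD of either gene over the cells. The SD of the 5 genes lay between 2.23 and 3.21, against a median of 1.75 over all rows. Of the 5 genes 3 were detected in at least 10 cells, against 36% of all rows, and the same 3 of 5 in at least 7 cells, against 51.7%. A level of 8 or more in some cell was reached by 3 of 5, namely Cxcl12, Lepr and Grem1, against 19.9% of rows. A single cell held at least 50% of the summed linear level for 4 of 5, against 49.1% of rows, so concentration in 1 cell was common in this table.

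The 5 genes were found together in 3 cells. Cells 6, 9 and 11 had all 5 detected, and 31% of all rows were detected in these 3 cells together, which were picked here for the members. Cell 3 had 4 of the 5, lacking Il7, which was at 0.88. Cells 1, 2, 7, 8, 10, 12 and 13 had 3 each, cells 5 and 14 had 2, and cell 4 had Il7 alone. Cells 6 and 11 were among those rich in neutrophil transcripts, so of the 3 cells with all 5 genes, cell 9 was the only one outside that group. In cell 6 Il7 and Grem1 were at 1.25 and 1.84, close to the detection level, while Cxcl12 and Lepr were at 5.73 and 6.37.

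Cell 9 had 4 of the 5 genes at 5 or more, and Grem1 at 4.94. Cxcl12 and Vcam1 had their highest level of the 14 cells there, which was true of 6.59% of all rows. Il7 and Grem1 had their second highest, so that 4 of 5 had cell 9 among their 2 highest cells, against 14.8% of rows. Lepr ranked 4th there. Within cell 9 the 5 genes stood at the 99.7th percentile (Cxcl12), the 90.6th (Vcam1), the 87.3rd (Lepr), the 84.0th (Il7) and the 80.8th (Grem1). Cell 9 was singled out after its values had been seen. It had Prrx1 at 5.06 and a mean of 10.31 over the 12 fibroblast matrix genes, the highest of the 14 cells.

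Pairs of the genes were compared over the cells. Every cell with detected Lepr also had Cxcl12, 12 in all, and cell 12 had Cxcl12 at 4.43 without detected Lepr. All 10 cells with Vcam1 and all 6 with Grem1 also had Cxcl12, which was itself detected in all cells but 1. Among pairs with Cxcl12, both genes reached 5 or more in cells 6, 7 and 9 for Lepr, in cells 9 and 11 for Il7, in cell 9 for Vcam1 and in no cell for Grem1. Grem1 and Vcam1 did so in cell 12. The genes Lepr and Grem1 were never both at 5 or more, and the highest Grem1 level in a cell with Lepr at 5 or more was 4.94, in cell 9. Spearman correlations over the 14 cells ran from -0.13 for Lepr and Grem1 to 0.56 for Cxcl12 and Vcam1, with 0.50 for Cxcl12 and Lepr. Without cell 9 these 3 values were -0.25, 0.45 and 0.43. The cells share the quantile normalization, and the correlations are descriptions of these cells.

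**Figure D3:**
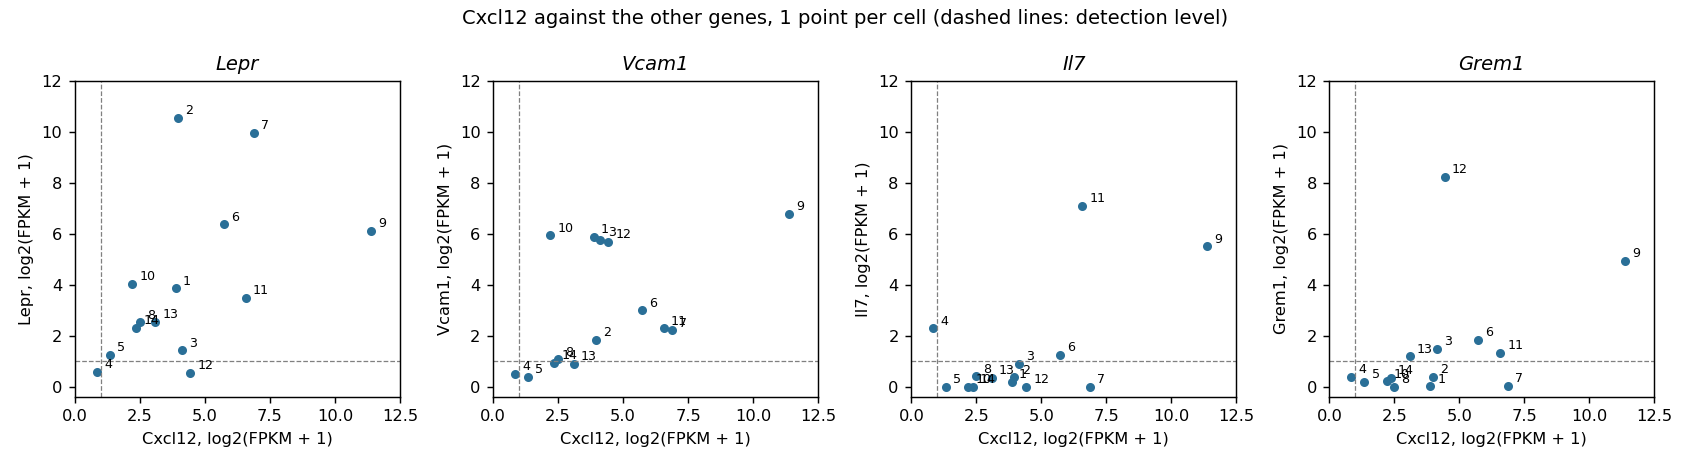
Level of Lepr, Vcam1, Il7 and Grem1 (vertical axes) against Cxcl12 (horizontal axes) in the 14 cells, both as log2(FPKM + 1), with 1 numbered point per cell and dashed lines at the detection level of 1. Cell 9 lies at the right of each panel with Cxcl12 at 11.38, and the cells highest in Lepr (2), Il7 (11) and Grem1 (12) lie at Cxcl12 levels of 3.97, 6.56 and 4.43.

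Other known niche factors were read from a list of 37 genes, of which 27 were measured. In at least 7 cells, 18 of the 27 were detected (66.7%, against 51.7% of all rows). Kitl, which encodes stem cell factor and is known with Cxcl12 as a product of this stroma, was found in 10 cells, its median being 1.28, and cells 1 and 9 had the highest levels, 6.74 and 4.43. In the Lepr-high cells 2 and 7 it was at 1.21 and 1.71. Csf1, the macrophage growth factor gene, was found in 11 cells, and its highest levels were 6.17, 5.95 and 5.42 in cells 3, 8 and 9. The cytokine gene Il6 was found in 12 cells, and its levels of 10.02 and 9.80 in cells 11 and 9 were the highest, as were those of Il7. The part of blood cell RNA in the Il6 level of cell 11 was not tested either. Il15, a cytokine gene of lymphocyte support, was found in cells 11 and 4 only, at 5.60 and 2.58.

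The highest level lay in 1 of the 5 cells with Cxcl12 or Lepr at 5 or more (cells 2, 6, 7, 9 and 11) for 12 of the 27 factors, against 40.2% of all rows. Cell 1, which had neither gene at 5 or more, held the highest level of Kitl, Tgfb2, Tgfb3, Cxcl14, Ptn, Gas6 and Postn, with Postn, a matrix gene, at 10.86. Cell 10 held that of Spp1, Slit2, Cdh2 and Vegfc. The share of all rows highest in cell 1 or in cell 10 was not computed, so these names are a description only. The lymphoid chemokine gene Ccl19 was at 8.92 in cell 9 and at 2.45 or below elsewhere. Cxcl16, a chemokine gene, was at 6.80 and 6.66 in cells 9 and 12, against 2.15 or below in the others. Fgf7, a growth factor gene for epithelial cells, had levels of 8.60, 8.32 and 7.61 in cells 9, 2 and 3. Igf1, the insulin-like growth factor gene, had levels of 10.28, 9.74 and 7.11 in cells 7, 1 and 9. The notch ligand gene Jag1 was found in 4 cells, with 4.85 and 4.58 in cells 2 and 9. Fn1 (fibronectin), Ccl2, Spp1 and Vegfa were found in every cell, and their medians were 8.07, 7.41, 5.57 and 3.31. Fn1 had its lowest level in cell 9, 3.08.

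**Figure D4:**
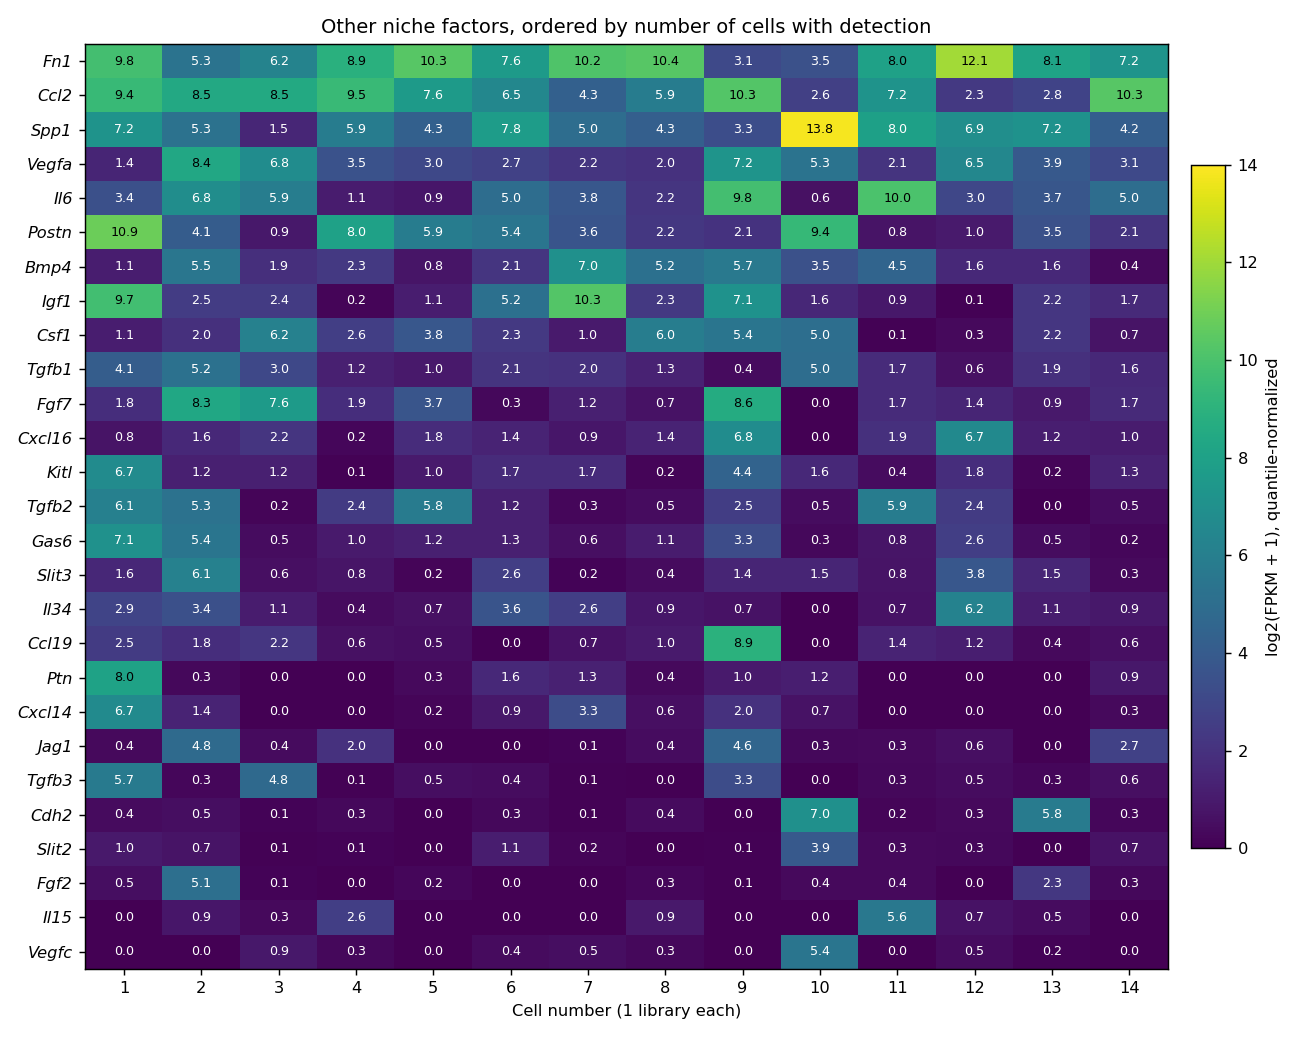
Level of the 27 other niche factors measured (rows, ordered by the number of cells with detection) in the 14 cells (columns), as log2(FPKM + 1) with the value printed in each field. Cell 9 holds the highest Ccl19, Cxcl16 and Fgf7 (8.92, 6.80 and 8.60) and cell 1 the highest Kitl (6.74).

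Genes known from marrow reticular stroma were read from a second list, in which 19 of 25 genes were measured and 13 of the 19 were detected in at least 7 cells (68.4%, against 51.7%). Igfbp5, an insulin-like growth factor binding protein gene, had levels of 10.07, 9.28 and 9.26 in cells 7, 9 and 2, and 6.31 or below in the others. Serping1, the complement C1 inhibitor gene, was found in every cell, and the same 3 led it, with 11.79, 11.38 and 10.29 in cells 9, 2 and 7. Of the 19 genes, 6 had their highest level in cell 9, against 6.59% of all rows, and cell 9 was singled out after its values had been seen. The 6 were Serping1, Apoe, Kng1, Kng2, Tmem176a and Tmem176b, so the count takes related genes, such as Kng1 and Kng2, as separate. Tmem176a was at 9.93, 9.12 and 8.98 in cells 9, 13 and 10, and Tmem176b at 10.92, 8.98 and 8.87. In 1 of the 5 cells with Cxcl12 or Lepr at 5 or more, cell 9 among them, 12 of the 19 had it, against 40.2%. The other 7 had it elsewhere, among them the glutathione peroxidase gene Gpx3, with 14.58 and 13.22 in cells 12 and 1. Hp and Trf, which encode the plasma proteins haptoglobin and transferrin, were highest in the leukocyte-rich cell 14, at 9.34 and 8.88. The kininogen genes Kng1 and Kng2 were detected in cells 9 and 7 only, at 3.39 and 6.39 in cell 9 and at 2.18 and 2.40 in cell 7. Apoe, the apolipoprotein E gene, was at 8.47 and 8.0 in cells 9 and 6. The lipoprotein lipase gene Lpl was at 7.01 and 6.12 in cells 2 and 1, and at 1.56 in cell 7. Pdgfrb, a receptor gene of perivascular cells, was detected in cells 11, 1, 7 and 9 at 5.89, 4.97, 4.68 and 4.32, and in cell 2 it was at 0.33.

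The binding partners of the Cxcl12 product differed in their spread. Cxcr4, the receptor through which blood cells respond to this chemokine, was found in 7 cells, at 6.30, 3.98 and 3.21 in cells 14, 11 and 8, and at 1.45 or below elsewhere. Cells 8, 11 and 14 were the 3 cells with the highest leukocyte means, 6.48, 9.25 and 9.61. Ackr3, a scavenging receptor for the same chemokine, was found in every cell, and its median was 6.17 and its lowest level 1.17, in cell 14. In cell 9, where Cxcl12 was highest, Ackr3 was at 3.34. Dpp4, a protease gene whose product inactivates the chemokine, was found in 3 cells, with 5.68 in cell 8 as its highest level.

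Genes of leptin signalling were widely detected, with 8 of 11 measured members found in at least 7 cells (72.7%, against 51.7%). The kinase gene Jak2, which the leptin receptor uses, was found in 8 cells, and had levels of 0.27 and 1.77 in the Lepr-high cells 2 and 7. Stat3, the transcription factor activated by the receptor, was found in 13 cells (median 5.19), and had levels of 5.72 and 5.83 in cells 2 and 7. Socs3, a feedback inhibitor and Stat3 target gene, was found in every cell (median 5.26), and had levels of 6.42 and 5.51 in cells 2 and 7. Its highest level was 7.22, in cell 11. Leprot, a separate gene on the same strand whose end lies 58.0 kb before the start of Lepr, was found in 13 cells. Cells 12 and 4, which lacked detected Lepr, had Leprot at 7.30 and 6.70, and the Lepr-high cells 2 and 7 had it at 7.24 and 6.30. Over the 14 cells the Spearman correlation of Leprot with Lepr was -0.21. The leptin gene Lep was not analysed here.

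Of the integrin genes whose products bind the Vcam1 product, Itga4 and Itgb7 were not analysed here. Itgb1, the beta chain shared by many integrins, was found in every cell (median 5.66). Of 12 measured genes in the Vcam1 list, 9 were detected in at least 7 cells (75%, against 51.7%). Icam1, a related adhesion gene, had levels of 7.14, 6.74 and 5.82 in cells 2, 9 and 10. Its levels were 1.78, 1.63 and 3.53 in cells 1, 3 and 12, where Vcam1 was also high. Nfkb1, which encodes an NF-kappaB subunit, was at 4.87, 6.23, 7.34 and 6.11 in cells 9, 1, 3 and 12 and at 1.70 in cell 10. It was also at 7.07 and 5.13 in cells 2 and 14, where Vcam1 was at 1.83 and 0.93. The receptor gene Il7r was not analysed here. Il2rg, which encodes the cytokine receptor chain that the Il7 receptor shares, was found in 7 cells, at 5.97 and 5.18 in cells 4 and 14. The kinase gene Jak1 was found in every cell, whereas Stat5a and Stat5b, which act in Il7 signalling in lymphocytes, were detected in 2 cells and 1 cell.

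Grem1 was read beside the ligands it binds and the targets of that pathway. Of 13 measured genes, 7 were detected in at least 7 cells (53.8%, against 51.7%). Bmp4, the gene of a ligand that the Grem1 product blocks, was found in 12 cells, with 7.03 in cell 7, and was at 1.62 in cell 12, the cell highest in Grem1. Bmp2, another such ligand gene, was found in 4 cells, with 6.34 in cell 2, and was listed at 0 in cell 12. Other antagonist genes were high in other cells: Nog (noggin) and Chrd (chordin) were detected in cell 7 alone, at 4.81 and 4.75, and Fst (follistatin) was highest in cell 8 at 5.75. Bmper, which encodes another binding protein of these ligands, was at 6.29 and 6.22 in cells 9 and 2, and below detection in the others. The target genes Id1, Id2 and Id3 were at 8.0, 10.91 and 8.90 in cell 12, and at 8.49, 9.07 and 10.66 in cell 7. Id3 had a median of 10.36 over the 14 cells.

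**Figure D5:**
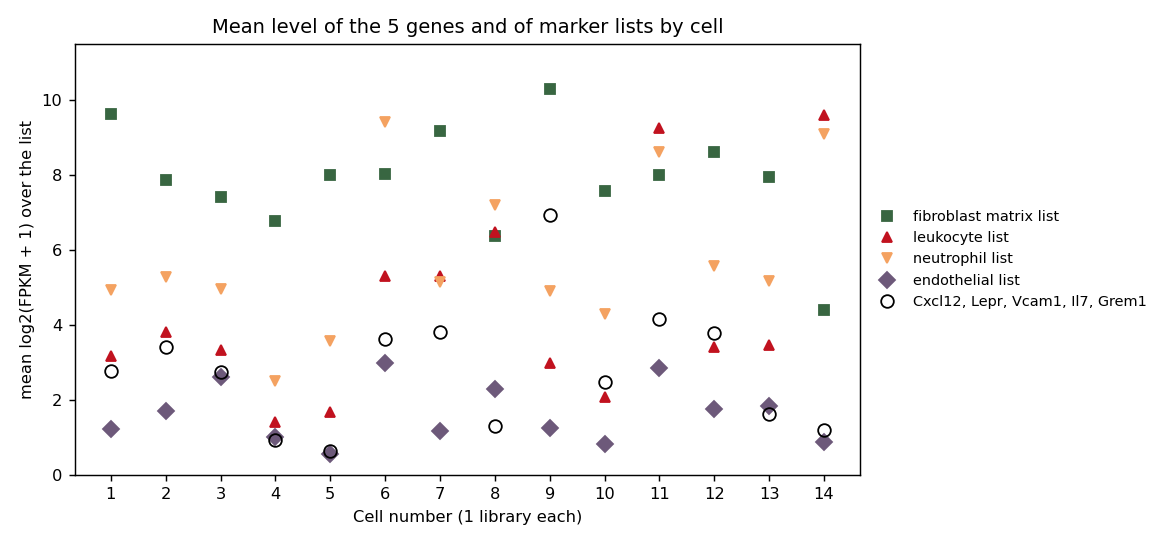
Mean log2(FPKM + 1) of Cxcl12, Lepr, Vcam1, Il7 and Grem1 (open circles) and of 4 marker lists (filled symbols) in each of the 14 cells. The mean of the 5 genes is highest in cell 9, at 6.95, and lowest in cell 5, at 0.63, while the leukocyte list is highest in cells 14 and 11, at 9.61 and 9.25.

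The mean of the 5 genes was highest in cells 9, 11, 7, 12 and 6, with 6.95, 4.15, 3.82, 3.78 and 3.63, and lowest in cells 5, 4 and 14, with 0.63, 0.92 and 1.19. Cell 14 had the lowest fibroblast matrix mean, 4.40, and high leukocyte and neutrophil means, 9.61 and 9.09. Cells 4 and 5 had fibroblast matrix means of 6.78 and 7.99 and the lowest leukocyte means, 1.40 and 1.68. The part of blood cell RNA in the low levels of cells 4, 5 and 14 was not tested. The libraries were also split into 2 sets by which rows are listed at 0, with the number of sets fixed in advance. Cells 3, 4, 11, 12 and 13 form the smaller set and the other 9 the larger. These sets come from the values and not from the labels, and how well they separate was not measured. The rows of Il7 and Grem1 were among those used for the split. Grem1 was detected in 4 of 5 cells of the smaller set and in 2 of 9 of the larger, and Lepr in 3 of 5 and in 9 of 9. Il7 was detected in 2 of 5 and in 2 of 9, Vcam1 in 3 of 5 and in 7 of 9, and Cxcl12 in 4 of 5 and in 9 of 9. The share of all rows that differ as much between the sets was not computed, so these counts are a description only. Median Lepr was 1.42 in the smaller set and 4.04 in the larger. Cxcl12 had medians of 4.13 and 3.86 in the 2 sets, Vcam1 of 2.29 and 2.21. The part of this library difference in the Lepr and Grem1 patterns was not tested.

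The rows whose levels ordered the cells most like each gene were taken by Spearman correlation over the 14 cells, among 6006 rows (6007 for Il7) detected in at least 5 cells. They are the top of a large number of comparisons, and below the detection level the order rests on values close to 0. For Cxcl12 these rows were Gdf10 (0.91), Fmo2 (0.90), Ccdc137 (0.89), Cygb (0.88) and Sult1a1 (0.88). Gdf10, a growth factor gene of the transforming growth factor family, was highest in cell 7 at 8.50, and Sult1a1, a sulfotransferase gene, in cell 9 at 8.05. For Lepr they were Ift172 (0.88), Larp1b (0.85), Csn1s2b (0.83), Hscb (0.83) and Lgals4 (0.83), of which Larp1b alone was highest in cell 2, at 7.30. For Vcam1 they were Lgals3bp (0.85), Apoe (0.82), Mdk (0.80), Slfn5 (0.80) and Ehbp1l1 (0.78), all 5 of them highest in cell 9. Apoe is also a member of the reticular stroma list, and Mdk encodes the secreted growth factor midkine. For Il7 they were Qars (0.78), Zfp62 (0.76), Stam (0.76), Ang (0.75) and Pfn2 (0.75). For Grem1 they were Slc22a21 (0.93), Elp4 (0.84), Zfp62 (0.84), Apool (0.81) and Akr1b10 (0.81).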

How the data were processed

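RNA of 14 single cells was sequenced from SMART-Seq v4 3' and Nextera XT libraries, as the labels' protocols say. The submitters' processing notes list TopHat2, Cufflinks and GRCm38, and no version is given in the sources used here. The authors' deposited table carries FPKM in its name, while its range is that of log2 values, taken here to be log2(FPKM + 1). Every column has the same maximum, 14.58, and the same quartiles, which is how quantile-normalized columns look. The sources used here record neither the log nor the normalization. Reads of a 3' kit do not grow with transcript length, so the division by length understates long genes. Each of the 14 columns has the title of 1 sample, and 0 columns lacked a sample.

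Levels, percentiles within cells (all rows ranked), detection (a level of 1 or more), linear shares (2 to the power of the level, minus 1) and Spearman correlations were computed with Python 3.11.15, pandas 2.3.3, numpy 2.4.6 and scipy 1.17.1, and figures with matplotlib 3.10.9. The correlation step was tested on simulated data. Where a symbol was repeated, its first row was taken. No test between samples was run, since there is 1 group and no labelled animal. The genes, lists and the rule for named genes (the 5 genes, genes of the fixed lists, and the 5 rows most like each gene, without symbols of mitochondrial, ribosomal protein, small non-coding or predicted genes) were chosen with earlier results of these data known. Alternatives were other detection thresholds, other pseudocounts, normalized levels multiplied by exonic length, Pearson correlation and fewer cells. Promoter windows are from RefSeq (GRCm38.p6), where 3 of the 5 genes matched.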

Additional observations from a re-analysis of the deposited data

How the results depend on the processing

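The alternatives bear on values only, since nothing was tested. No paired analysis was possible because there is 1 group. Detection followed the threshold. Above 0, Il7 was found in 9 cells, Grem1 in 13 and all 5 genes together in 8, against 4, 6 and 3. At an FPKM of 5, Lepr was left in 7 cells, Vcam1 in 6, Il7 in 2, Grem1 in 2, all 5 genes in 1 cell (cell 9), and the other niche factors detected in at least 7 cells numbered 6, against 12, 10, 4, 6, 3 and 18. At an FPKM of 10 the values were 8 for Cxcl12, against 13, then 7 for Lepr, 5 for Vcam1, 2 for Il7, 2 for Grem1, 1 for all 5 genes and 6 for the list. The share of all rows at these thresholds was not computed, so the list counts cannot be set against the whole table. Without cells 6, 8, 11 and 14, Il7 was detected in 2 cells and all 5 genes in 1. The last setting, without cells 11 and 14 as well, was added for the joint count after the data had been seen, as was leaving out cell 9 for the correlations. Multiplying the normalized linear level by exonic length, without repeating the normalization, gave medians of 6.86 for Cxcl12 and 5.10 for Vcam1. It turned the order of the lowest pair, with 1.37 for Il7 and 1.18 for Grem1. This step raises each gene by its own length by design, so the size of the shift is not a finding. A pseudocount of 10 gave medians of 3.36 for Il7 and 3.37 for Grem1, which reflects the changed scale, since it lifts values near 0 the most. The other 16 medians moved by less than the SD over the cells. Of the 25 rows named as most like a gene, 6 were also named by Pearson correlation and 10 without cells 11 and 14, so these names depend on the setting. Read depth is unknown, and a level of 0 does not show absence of the transcript.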

Other observations

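Transcription factors known from marrow stroma differed in how many cells had them. Of 17 measured factors, 8 were detected in at least 7 cells (47.1%, against 51.7% of all rows). Ebf1, which acts both in stroma and in B cells, was found in 12 cells (median 5.54), with 7.60 in cell 11 and 5.40 to 6.56 in cells 2, 3, 4, 7, 8, 9 and 12. In cell 4 it was at 5.68, although only Il7 of the 5 genes was detected there. Its relative Ebf2 was detected in cells 2, 8 and 9, at 6.93, 4.48 and 4.19. Foxc1, a factor known to maintain Cxcl12-producing reticular cells, was detected in cells 12, 1, 11 and 13, at 5.46, 5.24, 3.16 and 2.60, and was at 0.31 in cell 9 and listed at 0 in cell 7. Cebpa, a factor of fat cell formation, was detected in cell 7 alone, at 4.32. Zeb2 had its highest levels, 8.67, 8.57 and 8.48, in cells 9, 12 and 14. Adipoq and Ebf3, which are widely used as markers of Lepr-expressing stroma, were not analysed here.

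The osteoblast genes of the marker list were highest in cells 10 and 13, with means of 8.10 and 7.65. In these cells Cxcl12 was at 2.20 and 3.09 and Lepr at 4.04 and 2.55. Vcam1 was at 5.95 in cell 10 and 0.89 in cell 13. The cadherin gene Cdh2 was detected in the same 2 cells only, at 7.04 and 5.81. Cell 6 came next by osteoblast mean, with 6.09, and the remaining cells had 4.25 or less. Cxcl12 and Lepr in cell 6, at 5.73 and 6.37, exceeded their levels in cells 10 and 13. Among the 14 cells, Cxcl12 ranked 12th and 9th in cells 10 and 13, and Lepr 5th and 8th. Cell 6 was also among the cells rich in neutrophil transcripts. Cell 6 held the highest Ifitm5 and Runx2, 11.72 and 6.46, while cell 10 held the highest Ibsp, Spp1 and Alpl.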
